A study of Homo sapiens with 8 samples.

Results

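The genes described here were 40 genes of DNA replication and of nucleotide supply, each taken by symbol and measured by its brightest probe set. All 40 were on the array and all passed the filter on dim genes, out of 18132 genes with a probe set of 1 gene, of which 12845 were tested. They were chosen by function, with earlier results of these data known. By step, 10 belonged to origin licensing, 6 to helicase activation, 6 to the polymerases and primase, 7 to the sliding clamp, its loader and the joining of Okazaki fragments, 4 to nucleotide supply, 5 to chromatin assembly and histone supply, and 2 to the replication checkpoint.

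Signals came from NB4, a human acute promyelocytic leukaemia line that can be driven towards neutrophils, after lentiviral transduction (multiplicity of infection 10). The tested cells carried 1 of 3 hairpins against CDK2 (shCDK2 #1, #3 or #10), and the control cells carried a scrambled hairpin, called scramble below. RNA was taken after 2 or 5 days, which the submitters describe as early and late differentiation stages, with 1 Affymetrix array per construct and day, 8 in all. The hairpins therefore stood in as the repeats of the knockdown, nothing in the labels says that arrays came from separate cultures, and p-values below reflect no more than the spread among the 8 arrays.

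CDK2 is a cyclin-dependent kinase that acts at the start of S phase. Before S phase, the origin recognition complex, CDC6 and CDT1 load the MCM2 to MCM7 helicase on DNA; kinases then bring in CDC45 and the GINS complex, which switch the helicase on. DNA polymerases alpha, delta and epsilon, the PCNA clamp and the RFC clamp loader copy the strands, FEN1 and LIG1 join the lagging strand, and CAF-1 and ASF1 put histones on the new DNA. Many of these genes are known targets of E2F transcription factors, which the retinoblastoma proteins hold in check until cyclin-dependent kinases phosphorylate them.

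Promoter sequences were read for the 3 members with the lowest change in shCDK2 #10 and for TK1, the member nearest to no change, since E2F sites are the feature that replication promoters are best known for. The windows are from RefSeq on GRCh38.p14 and give the 250 bases before 1 annotated transcript start, 5′ to 3′ on the strand of the gene, using the first window listed where a gene had several. Capitals mark a match to an E2F spelling on either strand. UHRF1 is at chr19:4909251-4909500 on the + strand, RFC3 at chr13:33817899-33818148 on the + strand, CDC45 at chr22:19479670-19479919 on the + strand and TK1 at chr17:78187205-78187454 on the - strand.
UHRF1: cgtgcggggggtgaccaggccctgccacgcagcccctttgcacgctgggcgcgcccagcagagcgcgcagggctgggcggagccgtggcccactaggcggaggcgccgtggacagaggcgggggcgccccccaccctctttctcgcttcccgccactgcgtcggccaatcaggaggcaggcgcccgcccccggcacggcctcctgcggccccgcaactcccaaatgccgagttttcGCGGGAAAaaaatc
RFC3: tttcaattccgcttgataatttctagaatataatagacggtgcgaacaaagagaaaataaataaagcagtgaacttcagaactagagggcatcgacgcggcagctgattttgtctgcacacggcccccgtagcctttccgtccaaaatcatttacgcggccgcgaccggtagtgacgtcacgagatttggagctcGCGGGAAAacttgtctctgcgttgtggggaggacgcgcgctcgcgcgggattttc
CDC45: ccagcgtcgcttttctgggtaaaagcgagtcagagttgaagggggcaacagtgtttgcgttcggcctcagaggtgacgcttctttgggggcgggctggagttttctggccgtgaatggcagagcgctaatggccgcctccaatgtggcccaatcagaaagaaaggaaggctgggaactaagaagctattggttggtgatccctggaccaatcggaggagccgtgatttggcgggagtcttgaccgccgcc
TK1: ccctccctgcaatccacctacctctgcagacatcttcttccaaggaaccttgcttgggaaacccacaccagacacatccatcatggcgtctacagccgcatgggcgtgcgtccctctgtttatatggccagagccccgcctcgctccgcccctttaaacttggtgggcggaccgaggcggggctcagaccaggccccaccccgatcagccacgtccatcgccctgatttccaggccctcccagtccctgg

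The spellings searched on both strands were TTTGGCGC, TTTCCCGC, TTTGCCGC and TTTCGCGC for E2F, CCAAT for the CCAAT box, and TTTGAA and TTCGAA for the cell cycle homology element. Matches on opposite strands could overlap, as E2F spellings did in MCM6 and MCM2. UHRF1 held an E2F match at positions -14 to -7 from the start and RFC3 one at -55 to -48, both spelled TTTCCCGC on the other strand. The CDC45 and TK1 windows held none of these E2F spellings, and other forms of the site were not searched. The CDC45 sequence does hold tttggcgg, which differs from TTTGGCGC in the last base only. RefSeq windows of 300 bases (250 before and 50 after a start) were matched for 37 members, with MCM4, MCM5 and GINS4 the other members. Of the 49 windows of these members, 20 (40.8%) held an E2F spelling, against 1164 of the 35116 windows in the table (3.3%). CCAAT was found in 31 of the 49 (63.3%), against 34.6% of all windows, and the cell cycle homology spellings in 3 (6.1%), against 16.4%. The median change in shCDK2 #10 was -0.60 log2 for the 19 members with a searched E2F spelling, among them PCNA with the highest change of all. It was -0.53 for the 18 without one, CDC45 among them, and this split depends on the spellings searched.

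CDK2 itself checks the labels. Its brightest probe set read 7.78 log2 in #1, 9.03 in #3 and 7.54 in #10 at day 2, against 9.10 in scramble. At day 5 it read 7.89 in #1, 7.72 in #3 and 8.08 in #10, against 8.19 in scramble. In this probe set the array labelled #3 at day 2 was thus at the level of its control. The array labelled scramble at day 5 was lower than the scramble array of day 2 by 0.91 log2. In the other CDK2 probe sets, both above the filter, #3 at day 2 differed from scramble by -0.31 and 0.11. Scramble differed by -1.34 and 0.01 in them, day 5 minus day 2, so the check of both arrays depends on the probe set. Arrays are named below as labelled. Fitted medians over all members that rest on either of these arrays are also given without it where a fit could be made. Medians of parts of the members, such as the steps, and most counts are given with all arrays kept. Myeloid granule genes marked the cells as promyelocytic: MPO read 13.4 to 14.4 log2 and PRTN3 9.76 to 11.2, while ELANE was dim at 5.83 to 6.35, and all 5 promyelocyte markers measured passed the filter of 5.83. Of the 9 lymphoid, erythroid, fibroblast and epithelial markers measured, 7 passed this filter in their mean over the arrays, and MS4A1 and COL3A1 did not. CD3D, a T cell marker, read 11.3 and 10.9 in #10, against 8.81 and 8.82 in scramble, so it moved with this hairpin while CD3E stayed between 5.80 and 6.38. Its part in the results was not tested.

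The members' signals were lower in most hairpin arrays, by an amount that differed between hairpins (the plot of every member by array). The median difference from scramble of the same day was -0.16 log2 in #1, -0.34 in #3 and -0.64 in #10 at day 2. At day 5 it was 0.04 in #1, -0.27 in #3 and -0.47 in #10. Of the 40 members, 37 were lower in #10 at day 2 and 39 at day 5, while 29 and 17 were lower in #1 at the same times. The medians over all 12845 genes lay between -0.11 and 0.03 in these arrays. In RNA from whole cultures, fewer cells that express a gene and less of its RNA per cell cannot be told apart.

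**Figure D1:**
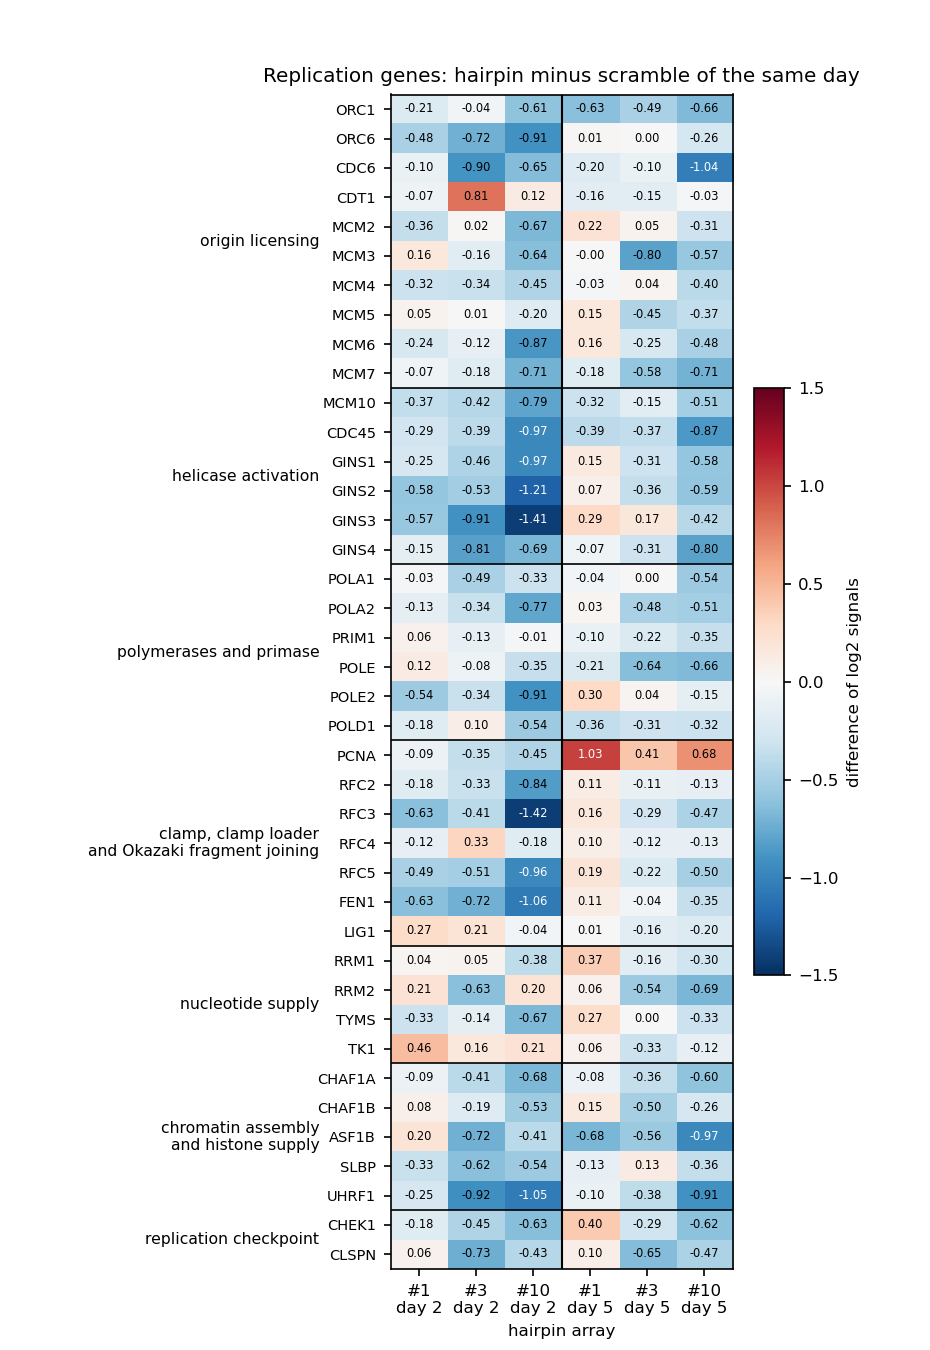
Difference of log2 signals, hairpin array minus the scramble array of the same day, for the 40 members (rows, grouped by step) in the 6 hairpin arrays (columns), with blue for lower and red for higher than scramble and 1 array behind each cell. The #10 columns are blue in nearly every row, and PCNA at day 5 is red in all 3 hairpins.

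With the 3 hairpins taken as repeats, the median of the members at day 2 was -0.37 log2 (36 of 40 lower), against 0.02 over all genes tested (46.8% lower). None of the members, and 0% of all genes, passed an adjusted p of 0.05 by limma, which moderates each gene's spread with that of all genes and adjusts by Benjamini-Hochberg over the 12845 genes. At an unadjusted p under 0.05, 3 members were lower, against 3.23% of all genes: the flap endonuclease FEN1, the origin recognition subunit ORC6 and the GINS subunit GINS3, with changes of -0.80 (SE 0.27), -0.70 (SE 0.24) and -0.97 (SE 0.39). All 3 hairpin arrays of day 2 lay below scramble for 25 members, against 26.5% of all genes. Without the array labelled #3 at day 2 the median was -0.40, with 35 of 40 lower.

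At day 5 the members' median was -0.20 log2 (37 of 40 lower), against -0.09 over all genes (60.8% lower). Again limma called 0 members and 0% of all genes at an adjusted p of 0.05. No member was lower at an unadjusted p under 0.05, where 0.389% of all genes were. At that level 1 member, PCNA, was higher, against 121 of the 12845 genes. All 3 hairpin arrays lay below scramble for 14 members, a share close to the 30% of all genes. The median was -0.36 without #1, -0.14 without #10 and -0.13 under median centring, with 39, 29 and 32 members lower. This comparison rests on the array labelled scramble at day 5, and there is no other control array of that day to set it against.

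The hairpins were then set against scramble 1 at a time, with both days of a construct as its repeats and day as a term. In shCDK2 #10 the members' median was -0.56 log2 (37 of 40 lower), against -0.09 over all genes (61.3% lower). Among the members 1, CDC45, fell at an adjusted p of 0.05 by limma, and 0.319% of all genes were called lower. At an unadjusted p under 0.05, 24 of the 40 were lower, against 9.53% of all genes. Both #10 arrays lay below both scramble arrays for 34 members, against 32.9% of all genes. Without the array labelled scramble at day 5 the median was -0.64, again with 37 lower, and no member was called. Without the array labelled #3 at day 2, which enters this fit only through the spread and the day term, the median stayed at -0.56. With #3 left out altogether, limma called 7 members. Calls also rose over all genes in that setting, with 237 of 12845 called lower, against 41 with #3 kept.

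In shCDK2 #3 the median was -0.35 log2 (35 of 40 lower), against -0.07 over all genes, and limma called 0 members and 0% of all genes lower. At an unadjusted p under 0.05, 4 members were lower, against 3.15% of all genes: CLSPN, UHRF1, GINS4 and ASF1B. Both #3 arrays lay below both scramble arrays for 21 members, against 18.8% of all genes. Without the array labelled #3 at day 2 this fit gave a median of -0.31 with 37 of 40 lower, and with the day 5 scramble array left out it gave -0.40 with 36 lower.

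In shCDK2 #1 the median was -0.08 log2 with 30 of 40 lower, against -0.02 over all genes, and it turned to 0.02 with 19 of 40 lower under quantile normalization. With the day 5 scramble array left out it was -0.17 with 28 of 40 lower. Limma called 0 members and 0% of all genes in this hairpin, and 0 members were lower at an unadjusted p under 0.05, where 0.958% of all genes were. Both #1 arrays lay below both scramble arrays for 11 members, against 17.6% of all genes.

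**Figure D2:**
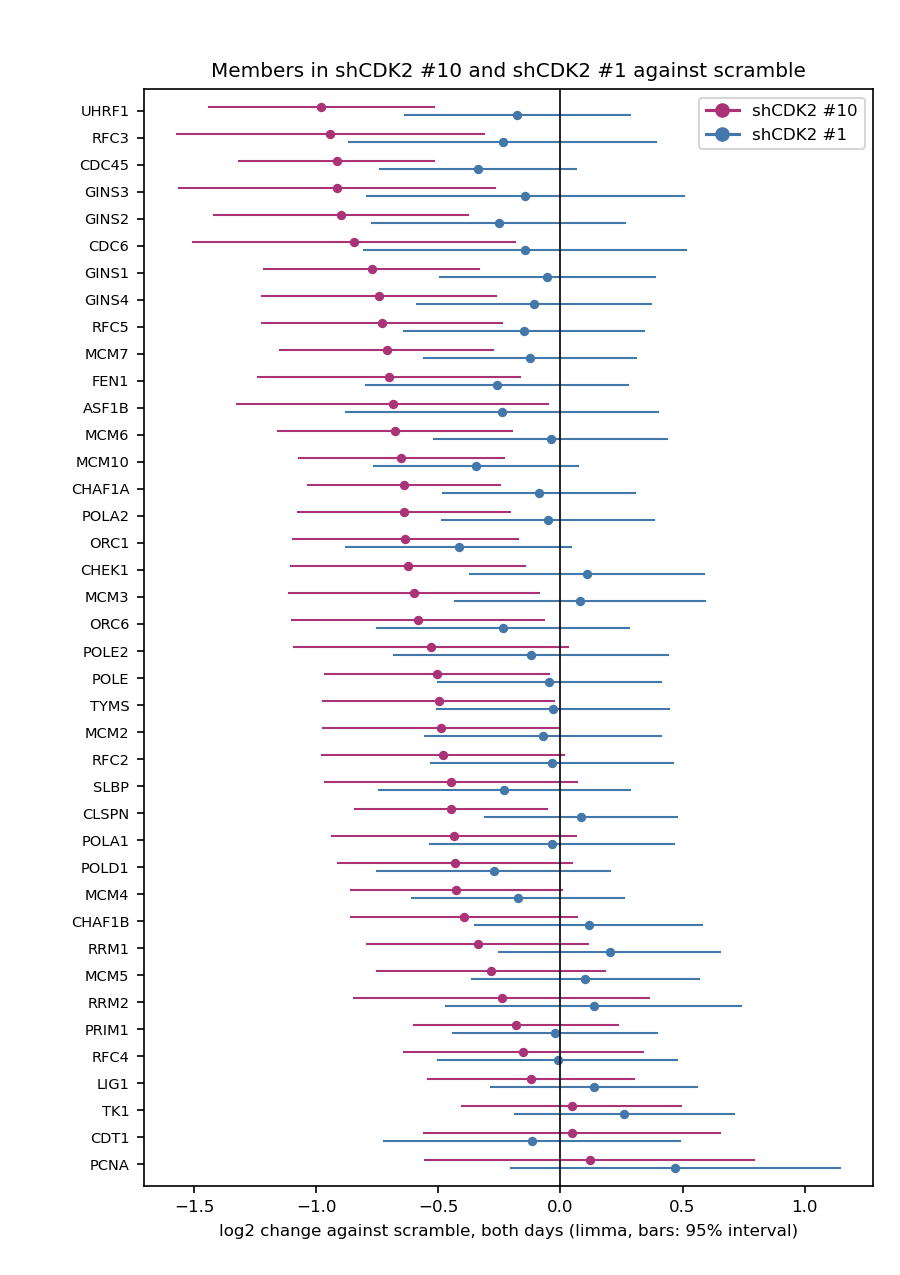
Change against scramble over both days on the log2 scale for the 40 members (rows, ordered by the change in #10), in shCDK2 #10 and shCDK2 #1, as limma estimates (points) with 95% intervals (bars, not adjusted for the number of genes), from 2 arrays per construct. The #10 points run from -0.98 for UHRF1 to 0.12 for PCNA, and every #1 interval includes 0.

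The difference between #10 and #1 is taken without a scramble signal, but the fit's spread uses the scramble arrays. The members' median was -0.45 log2, with 39 of 40 lower in #10, against -0.08 over all genes (59% lower). Limma called 0 members lower at an adjusted p of 0.05, and 0.00779% of all genes. At an unadjusted p under 0.05, 19 members were lower, against 4.71% of all genes. With the day 5 scramble array left out the median was again -0.45. The calls over all genes, 42 in either direction with that array, were lost without it. Both #10 arrays lay below both #1 arrays for 35 members, against 39.1% of all genes. CDK2 itself differed by -0.02 log2 between these hairpins (SE 0.42, adjusted p = 0.984). The CDK2 signals at day 2 differed from scramble by -1.56 log2 in #10 and by -1.33 in #1, beside members' medians of -0.64 and -0.16 in the same arrays. At day 5 the order for CDK2 was the other way by its brightest probe set, at -0.11 in #10 and -0.30 in #1. The members' medians in those arrays were -0.47 and 0.04.

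Origin licensing had a median of -0.59 log2 in #10, with 9 of 10 members lower and 7 lower at an unadjusted p under 0.05. Over all genes tested, 9.53% were lower at that level in #10, the share to set beside this count and those of the steps below. CDC6, an ATPase that helps to load the helicase, read 10.2 in #1, 9.40 in #3 and 9.65 in #10 at day 2, against 10.3 in scramble. At day 5 its signals were 9.89, 9.99 and 9.05 in the same order of hairpins, against 10.1 in scramble. In this probe set every hairpin array lay below the control of its day, with #3 lowest at day 2 and #10 at day 5. In the other CDC6 probe set, also above the filter, #10 was lowest on both days, at -0.63 and -0.29 from scramble. There #1 stood 0.21 above its control at day 5. The change of CDC6 in #10 was -0.85 (SE 0.28, adjusted p = 0.152 by limma).

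MCM7, a subunit of the helicase ring, read 13.4 in #1, 13.3 in #3 and 12.8 in #10 at day 2, against 13.5 in scramble. Its day 5 signals were 13.4, 13.0 and 12.8 in those hairpins, against 13.5 in scramble. #10 was lowest on both days at 61% and 61.1% of the scramble signal, and in this probe set no hairpin array reached either control. The change in #10 was -0.71 (SE 0.19, adjusted p = 0.0936). Among the other ring subunits the change in #10 lay between -0.68 for MCM6 and -0.28 for MCM5. MCM3 and MCM2 had -0.60 and -0.49, while MCM4 and MCM5 were not among the members lower at an unadjusted p under 0.05 (adjusted p = 0.255 and 0.505 by limma). For MCM4 the size depended on the probe set. The brightest had -0.43 in #10, and its others, all above the filter, had -0.64 to -0.81.

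ORC1 and ORC6 are subunits of the origin recognition complex. Relative to scramble, ORC6 differed by -0.48, -0.72 and -0.91 log2 in #1, #3 and #10 at day 2, but by 0.01, 0.00 and -0.26 at day 5. ORC1 showed the other order of days in #1 and #3, with -0.21 and -0.04 at day 2 and -0.63 and -0.49 at day 5. CDT1, the loading factor that works beside CDC6, was the licensing gene that was not lower in #10 by its brightest probe set (0.05, SE 0.26, adjusted p = 0.94 by limma). It stood 0.81 log2 above scramble in the array labelled #3 at day 2 and between -0.16 and 0.12 in the other hairpin arrays. All 3 of its probe sets were higher in that array, by 0.50 to 0.91. In #10 they differed: the second brightest was lower at day 2 and day 5, by -0.23 and -0.51. The dimmest read 0.09 and -0.08 from scramble, so the result in #10 depends on the probe set.

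Helicase activation had the lowest median of the 7 steps in #10, at -0.84 log2. All 6 members were lower, all 6 at an unadjusted p under 0.05. CDC45, which joins the MCM ring to form the active helicase, read 8.75 in #1, 8.64 in #3 and 8.06 in #10 at day 2, against 9.03 in scramble. Its day 5 signals were 8.43, 8.45 and 7.95, against 8.82 in scramble. In this probe set all 6 hairpin arrays lay below both scramble arrays, and the #10 arrays were the lowest of the 8. In #10 CDC45 fell by 0.92 log2 (SE 0.17, 95% interval -1.32 to -0.52, adjusted p = 0.047 by limma), to 51.1% of the scramble signal at day 2 and 54.9% at day 5. All 3 of its probe sets were lower in #10, while in the dimmest #1 stood 0.02 above scramble at day 5. The call was lost without the array labelled scramble at day 5 (adjusted p = 0.209), without #1 (0.0802), under median centring (0.0721), with the stricter filter (0.0539) and with a variance trend (0.0517). In #1 the change was -0.34 with an interval of -0.74 to 0.06, and in #3 it was -0.38 with an interval of -0.78 to 0.02.

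GINS3, 1 of the 4 subunits of the GINS complex, read 8.15 in #1, 7.82 in #3 and 7.31 in #10 at day 2, against 8.73 in scramble. By day 5 the hairpin signals were 8.20, 8.08 and 7.49, against 7.91 in scramble. The hairpin arrays were all below scramble at day 2, whereas at day 5 only #10 was, and the scramble array itself was 0.82 log2 lower at day 5 than at day 2. Its change in #10 was -0.91 (SE 0.28, adjusted p = 0.126). GINS2, GINS1 and GINS4 had changes of -0.90, -0.77 and -0.74 in #10, and MCM10, a factor of helicase start-up, had -0.65. By their brightest probe sets, GINS4 was lower than scramble in each of the 6 hairpin arrays, and GINS1 and GINS2 in all but #1 at day 5.

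**Figure D3:**
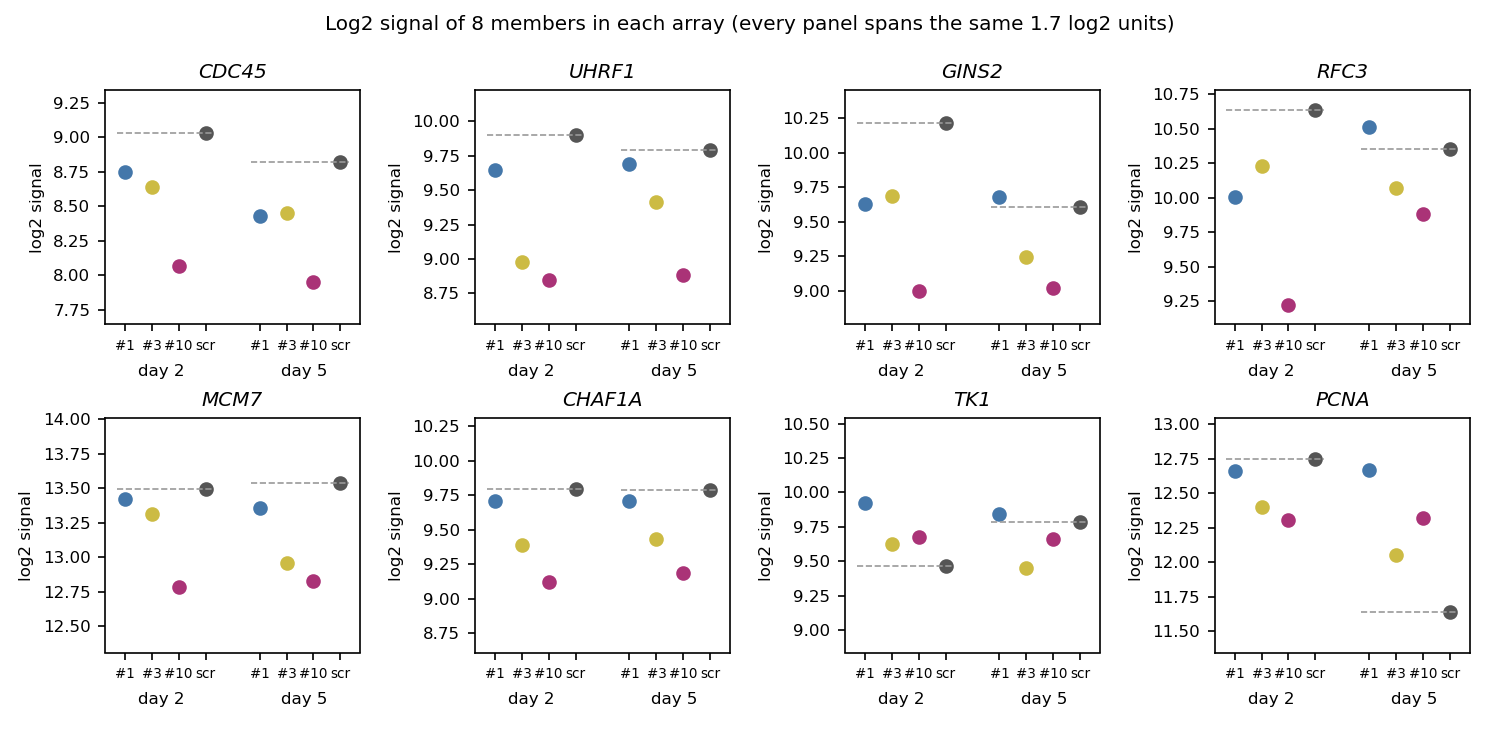
Log2 signal of 8 members in each of the 8 arrays, with hairpins #1, #3 and #10 left of scramble (scr) in each day and a dashed line at the scramble signal of that day; each point is 1 array. CDC45, UHRF1, MCM7 and CHAF1A have every hairpin point below both scramble points, while PCNA at day 5 has every hairpin point above its control of 11.6 log2.

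The polymerase and primase genes had a median of -0.47 log2 in #10, with 6 of 6 lower and 2 lower at an unadjusted p under 0.05. POLA2, the B subunit of the polymerase alpha and primase complex, read 9.42, 9.22 and 8.78 in #1, #3 and #10 at day 2, against 9.56 in scramble. The same hairpins read 9.63, 9.12 and 9.09 at day 5, against 9.60. The signals of #3 and #10 lay below both controls, and those of #1 overlapped them. Its change in #10 was -0.64 (SE 0.19, adjusted p = 0.115). POLE2, an accessory subunit of polymerase epsilon, differed from scramble by -0.54, -0.34 and -0.91 at day 2 in #1, #3 and #10 but by 0.30, 0.04 and -0.15 at day 5, with a change of -0.53 in #10 (SE 0.24, adjusted p = 0.274). POLE, its catalytic subunit, had the larger differences at day 5, at -0.64 in #3 and -0.66 in #10, against -0.08 and -0.35 at day 2. POLA1 and POLD1, the catalytic subunits of polymerases alpha and delta, had changes of -0.44 and -0.43 in #10. PRIM1, the catalytic primase subunit, had the smallest change of this step in #10, at -0.18 (SE 0.18, adjusted p = 0.647).

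In the clamp and clamp loader group the median was -0.48 log2 in #10, with 6 of 7 lower and 3 lower at an unadjusted p under 0.05. RFC3, a clamp loader subunit, read 10.0 in #1, 10.2 in #3 and 9.22 in #10 at day 2, against 10.6 in scramble. Its day 5 signals were 10.5, 10.1 and 9.88, against 10.4 in scramble. #10 was lowest on both days, at 37.5% of scramble at day 2 and 72.1% at day 5, and #1 lay above its control at day 5. The change in #10 was -0.94 (SE 0.27, adjusted p = 0.112). A second RFC3 probe set differed by -1.85 in #10 at day 2 while the dimmest of the 3 above the filter differed by -0.08, so the size depends on the probe set.

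RFC5, another loader subunit, read 9.43, 9.41 and 8.96 in #1, #3 and #10 at day 2, against 9.92 in scramble, and 9.79, 9.39 and 9.10 at day 5, against 9.60. As for RFC3, #1 lay below scramble at day 2 and above it at day 5. Its change in #10 was -0.73 (SE 0.21, adjusted p = 0.114), and 3 of its 4 probe sets were lower there. RFC2 and FEN1 had changes of -0.48 and -0.70 in #10, while RFC4 had -0.15 and LIG1, the ligase that seals the fragments, -0.12.

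PCNA, the sliding clamp, had the highest difference from scramble of the 40 members in each hairpin at day 5. It read 12.7 in #1, 12.4 in #3 and 12.3 in #10 at day 2, against 12.8 in scramble. At day 5 it read 12.7, 12.1 and 12.3, against 11.6 in scramble. The hairpin arrays were thus all below the control at day 2 and all above it at day 5, and the scramble signal itself was 1.11 log2 lower at day 5. The knockdown change was -0.30 (SE 0.28) at day 2 and 0.71 (SE 0.28) at day 5, and their difference was 1.00 (SE 0.40, unadjusted p = 0.0404, adjusted p = 1 by limma). PCNA rests on 1 probe set above the filter and on the array labelled scramble at day 5. Where no scramble signal enters, PCNA was lower in #10 than in #1, as most members were. That difference was -0.36 at day 2 and -0.34 at day 5, beside members' medians of -0.44 and -0.51.

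Nucleotide supply had the median nearest 0 of the 7 steps in #10, at -0.29 log2, with 3 of 4 lower and 1 lower at an unadjusted p under 0.05. TYMS, thymidylate synthase, read 11.9, 12.1 and 11.6 in #1, #3 and #10 at day 2, against 12.3 in scramble, and 12.3, 12.0 and 11.7 at day 5, against 12.0. Only #10 lay below both controls, with a change of -0.50 (SE 0.20, adjusted p = 0.226). RRM1, the large subunit of ribonucleotide reductase, read 10.4, 10.4 and 10.0 at day 2, against 10.4, and 10.6, 10.0 and 9.90 at day 5, against 10.2. Its change in #10 was -0.34 (SE 0.19, adjusted p = 0.398). RRM2, the small subunit, was 0.20 above scramble in #10 at day 2 and 0.69 below it at day 5, on the log2 scale. Its other probe set, also above the filter, differed from scramble by -0.02 and -0.70 in #10 on those days. TK1, thymidine kinase, was above scramble in all 3 hairpins at day 2, by 0.46, 0.16 and 0.21, and had a change of 0.05 in #10 with an interval of -0.40 to 0.49.

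Chromatin assembly and histone supply had a median of -0.64 log2 in #10, with 5 of 5 lower and 3 lower at an unadjusted p under 0.05. UHRF1, which binds hemimethylated DNA and recruits the maintenance methyltransferase, read 9.65 in #1, 8.98 in #3 and 8.85 in #10 at day 2, against 9.90 in scramble. At day 5 it read 9.69, 9.42 and 8.89, against 9.79 in scramble. In this probe set all 6 hairpin arrays lay below both scramble arrays, in the order #10, #3, #1 from low to high on each day. In its other probe sets, both above the filter, #1 stood 0.25 and 0.12 above scramble at day 5. The change of UHRF1 in #10 was the lowest of the 40 at -0.98 (SE 0.20, interval -1.44 to -0.52) and missed the threshold (adjusted p = 0.0563 by limma). In #3 it was -0.65 (SE 0.20, adjusted p = 0.38). Its 3 probe sets were all lower in #10, by sizes that spread over 0.72 log2.

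ASF1B, a histone chaperone, read 9.66, 8.74 and 9.05 in #1, #3 and #10 at day 2, against 9.46 in scramble, and 8.88, 8.996 and 8.59 at day 5, against 9.56. Hairpin #1 was above its control at day 2 and 0.68 below it at day 5, while #3 and #10 were below on both days. The change in #10 was -0.69 (SE 0.27, adjusted p = 0.216). CHAF1A, the large subunit of CAF-1, was below both scramble arrays in all 6 hairpin arrays by its brightest probe set. Its change in #10 was -0.64 (SE 0.17, adjusted p = 0.093). In its other probe sets, #1 stood 0.20 above scramble at day 2 (the brighter) and 0.09 above it at day 5 (the dimmer). CHAF1B and SLBP, which binds histone mRNA, had changes of -0.40 and -0.45.

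The checkpoint kinase CHEK1 and its activator CLSPN were both lower in #10, at an unadjusted p under 0.05 in each case. CHEK1 read 9.65, 9.37 and 9.19 in #1, #3 and #10 at day 2, against 9.82 in scramble, and 9.91, 9.22 and 8.89 at day 5, against 9.51. Its change in #10 was -0.63 (SE 0.21, adjusted p = 0.147), and all 6 of its probe sets were lower there. CLSPN read 7.08, 6.28 and 6.59 at day 2, against 7.02, and 7.19, 6.44 and 6.62 at day 5, against 7.09. #3 and #10 lay below both controls on both days and #1 lay above them or between them. CLSPN had the lowest change of the 40 in #3, at -0.69 (SE 0.17, adjusted p = 0.284).

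**Figure D4:**
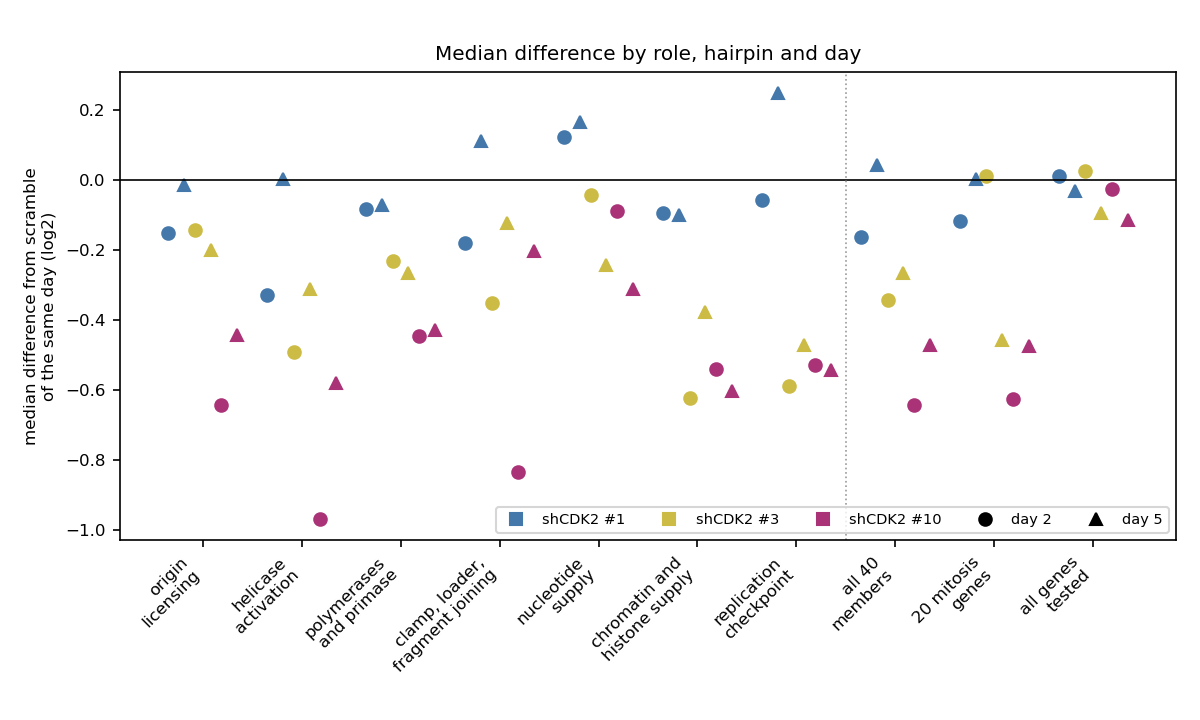
Median difference from the scramble array of the same day (log2) for each of the 7 steps, then for all 40 members, 20 mitosis genes and all genes tested, with colour for the hairpin, circles for day 2 and triangles for day 5; each point is a median over the genes of that list in 1 array. The helicase activation genes in #10 at day 2 are lowest at -0.97, and the points of all genes tested lie between -0.11 and 0.03.

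Among the hairpins, #10 was the lowest for 30 of the 40 members at day 2 and for 32 at day 5, against 47% and 25.3% of all genes tested. #1 was lowest for 1 and 2 members, against 26.9% and 33.5% of all genes. Within #10, 36 members were below scramble on both days (41.7% of all genes), compared with 24 in #3 (25.1%) and 13 in #1 (26.3%). Over the 40 members, the correlation of the differences between the days, each with its own scramble array, was 0.25 in #10, -0.05 in #3 and -0.16 in #1. Over all genes tested it was 0.60 in #10, 0.21 in #3 and -0.07 in #1. Of 96 probe sets of the members above the filter, 90 were lower in #10, and 22 of the 25 members with over 1 such probe set had all of them lower.

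Between the days, the members of the hairpin cells had a median difference of -0.04 log2, day 5 minus day 2, with 22 of 40 lower, against -0.03 over all genes. Limma called 0 members and 0% of all genes, and at an unadjusted p under 0.05 CDT1 was the 1 member lower, against 0.67% of all genes. Day 5 minus day 2 for CDT1 was -1.13 in #3, -0.25 in #1 and -0.32 in #10. Without the array labelled #3 at day 2, 0 members were lower at that level by limma (0.529% of all genes), the median was again -0.04 with 22 of 40 lower, and without #3 altogether it was 0.02 with 18 lower. In scramble the same difference had a median of -0.14, with 30 of 40 lower, from 1 array per day. The difference of the knockdown changes, day 5 minus day 2, had a median of 0.10 over the members, against -0.04 over all genes, and this median turned to -0.021 under quantile normalization. Without the array labelled #3 at day 2 it was 0.12. Limma called 0 members and 0% of all genes there, with 0 members lower at an unadjusted p under 0.05, against 0.265% of all genes.

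Other replication genes were taken from a list of 49, of which 47 had a probe set of 1 gene. Their median in #10 was -0.35 log2, with 39 of 47 lower, against 61.3% of all genes tested. At an unadjusted p under 0.05, 11 of them were lower, against 9.53% of all genes. At that level 1 was higher, against 1375 of the 12845 genes. CDC25A, the phosphatase that activates CDK2, read 9.89, 9.97 and 9.06 in #1, #3 and #10 at day 2, against 10.6 in scramble, and 10.3, 10.1 and 9.48 at day 5, against 10.3. Its #10 arrays were the lowest of the 8, and in #10 it fell by 1.19 log2 (SE 0.22, adjusted p = 0.047 by limma), a call lost without the array labelled scramble at day 5 (adjusted p = 0.187), under median centring (0.08) and with the stricter filter (0.0539). ASF1A, the paralogue of ASF1B, and TIPIN, a fork protection factor, had changes of -0.87 (adjusted p = 0.108) and -0.82 (adjusted p = 0.18). POLD4, the smallest subunit of polymerase delta, had the one large change upwards, at 1.10 (SE 0.35, adjusted p = 0.141), with signals of 10.5 and 10.5 in #10, against 8.81 and 10.0 in scramble, at day 2 and day 5.

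A list of 20 mitosis genes was set beside the members. In #10 their medians were -0.63 at day 2 and -0.48 at day 5, close to the members' -0.64 and -0.47. In the array labelled #3 at day 2 the mitosis genes had a median of 0.01 with 10 of 20 lower, and the replication genes -0.34 with 32 of 40 lower. At day 5 the order in #3 was the other way, with -0.46 for mitosis genes and -0.27 for replication genes. The difference between the lists was not tested.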

How the data were processed

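For the 8 Affymetrix arrays, the values that the authors deposited are log2 signals of 49395 probe sets, made from biotin-labelled cRNA of 6 µg total RNA per the labels' protocols. Partek is named in the submitters' processing notes, with its version, the normalization and the build not given in the sources used here. The log2 scale was read off the values, whose array medians ran from 6.30 to 6.43. Signals were used as deposited, and the number of arrays limits the precision.

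Only probe sets of 1 gene were kept (44994, against 1832 of several genes and 2569 of none). Symbols were updated by Entrez ID through RefSeq, which held 44967 of them, and the probe set with the highest mean stood for its gene. The filter kept genes whose mean exceeded the 40th percentile over probe sets, 5.83 log2. Levels of different genes come from different probe sets and were not compared.

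Models were fitted in limma (version 3.58.1, under R 4.3.3, with the data.table package, version 1.17.8), two-sided, with Benjamini-Hochberg adjusted p under 0.05 over all tested genes. A mean per group and day gave the pooled knockdown and the days, on the assumption that a single scramble array varies as the hairpin arrays of its day do. Construct and day as terms gave each hairpin, and these comparisons share the scramble arrays. Code was tested on simulated data.

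The members, steps, lists, tests and the naming rule were chosen with earlier results of these data known. The rule gave full values for called members and, per step, the 2 with the largest change in #10, and CDC25A, POLD4, ASF1A and TIPIN by the same measure. PCNA, CDT1, ORC1, ORC6, RRM2, POLE and TK1 were described further after their values were seen, and the promoter window was also chosen then. Alternatives were quantile normalization, median centring, averaging a gene's probe sets, no filter, a filter at the 60th percentile, a variance trend, leaving out hairpins or single arrays, and a replicate block.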

Additional observations from a re-analysis of the deposited data

Results flagged for a closer look

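PCNA was picked out because its hairpin arrays were all below scramble at day 2 and all above it at day 5. The knockdown change at day 5 minus that at day 2 was 1.00 log2 (SE 0.40), and the limma test of this difference over all genes did not pass (adjusted p = 1). Its signals were 12.7, 12.1 and 12.3 in #1, #3 and #10 at day 5, against 11.6 in the array labelled scramble at that day, the lowest PCNA signal of the 8 arrays. Day 5 minus day 2, PCNA differed by 0.005 in #1, -0.35 in #3 and 0.02 in #10, against -1.11 in scramble. The part of that 1 scramble array in the difference was not tested. Groups of 3 arrays or 1 were too small for a test of single outlying arrays.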

How the results depend on the processing

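The members' count of calls in shCDK2 #10, 1 as reported, was the least stable value: 2 under quantile normalization (CDC45 and UHRF1), 2 with the mean of probe sets (CDC45 and POLA2), 0 under median centring and 0 with the stricter filter. It ran from 0 to 7 when hairpins or arrays were left out, with 7 (CDC45, CDC6, CHAF1A, GINS1, GINS4, MCM7 and UHRF1) without #3 or without the array labelled #3 at day 2, and 0 with #1 or the day 5 scramble array left out. With a variance trend MCM7 was called and CDC45 was not (adjusted p = 0.0517). The range over all settings of the adjusted p of CDC45 was 0.0243 to 0.209. In #10 against #1 the calls ran from 0 to 1 with arrays left out (UHRF1 without #3), and the median was -0.56 under quantile normalization. The difference of the knockdown changes, day 5 minus day 2, had a median of 0.10 as reported. This median was -0.021 under quantile normalization, 0.21 under median centring, 0.16 with the mean of probe sets and 0.11 to 0.16 with arrays left out. Over all genes, 258 were called in #10, against 82 under median centring, 131 with the stricter filter, 960 without #3 and 0 with the day 5 scramble array left out. In #3, 4 were called, against 0 to 213, and in #10 against #1, 42, against 0 to 612. Other medians and counts kept their direction, with 32 to 37 members lower at day 2, 29 to 39 at day 5 (median -0.36 to -0.13), 34 to 37 in #3, 36 to 38 in #10 and 38 to 39 in #10 against #1, except #1 (19 to 30 lower, median -0.17 to 0.02) and day 5 against day 2 in the hairpin cells (18 to 24, median -0.09 to 0.02). A cause of these changes was not tested. With the hairpin number as a replicate block, day 5 against day 2 kept a median of -0.04 and 0 calls by limma. At an unadjusted p under 0.05, 2 members were lower in that fit, against 1.29% of all genes. Same-numbered arrays share a hairpin, and their deviations from the group means correlated at 0.72 in #1, -0.23 in #3 and 0.43 in #10. With 1 pair of arrays per hairpin, these values cannot decide how closely the number pairs the arrays. The main fit of the days took them as unpaired.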
